A study of Mus musculus with 6 samples.

Results

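Accessible chromatin was described at 6 genes for chromatin and transcription regulators, Chd7, Zmiz1, Gse1, Prdm16, Smarcd3 and Smarca4, out of 21631 protein-coding genes. A peak belonged to a gene when that gene had the nearest protein-coding body and the summit lay inside it or within 100 kb. This gave 104 of 49267 peaks in the atria (HT) and 70 of 44018 peaks in the posterior second heart field (pSHF). The genes were selected on these same peak lists, with their counts of HT peaks that no pSHF peak overlapped already known. Those counts are therefore given as a description with no test. A high count was not common to all 6 genes. It was 16 at Chd7, 18 at Zmiz1 and 22 at Gse1, but 6 at Prdm16, 2 at Smarcd3 and 0 at Smarca4. Both tissues were taken at embryonic day 10.0 from wild-type (WT) CD1 mice, an outbred strain, with 3 HT and 3 pSHF samples and no further allele or agent in either group. HT denotes the atria of the embryonic heart, and the pSHF is the progenitor field behind it that supplies cells to the venous pole. Tissue was microdissected, pooled over embryos, dissociated with TrypLE and transposed with Tn5, an enzyme that cuts accessible DNA and inserts sequencing adapters (ATAC-seq). The authors' data used here are 1 peak list per tissue, so no value has a replicate error and no difference can be weighed against variation between samples. In a dissected piece, a site open in more cells and a site more open in each cell cannot be told apart.

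Chromatin regulators act on nucleosomes or on the proteins that bind them. Remodelling ATPases such as CHD7 and SMARCA4 use ATP to slide or evict nucleosomes, while cofactors bring enzymes or activators to DNA through bound transcription factors. Several are known from heart development: CHD7 is the gene mutated in human CHARGE syndrome, which includes heart malformations, and in the mouse Smarcd3 encodes a heart-enriched subunit of the BAF (SWI/SNF) remodelling complex built around SMARCA4.

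The promoters that lay under a peak are shown first, to set the 1 covered in the HT list alone beside those covered in both. A RefSeq promoter table of GRCm38.p6, whose coordinates are those of mm10, held 7 windows for 5 of the genes (all but Chd7), each with 250 bases before a listed start and 50 after it. A peak covered 4 of these windows. Smarcd3 had an HT peak and no pSHF peak there, at a listed start inside the gene table's interval, while Smarca4, Zmiz1 and the third of 3 Gse1 windows were covered in both lists. The 250 bases before each start follow, 5′ to 3′ on the gene's strand, and capitals mark matches to the motifs searched.
Smarcd3, chr5:24602003-24602252, minus strand: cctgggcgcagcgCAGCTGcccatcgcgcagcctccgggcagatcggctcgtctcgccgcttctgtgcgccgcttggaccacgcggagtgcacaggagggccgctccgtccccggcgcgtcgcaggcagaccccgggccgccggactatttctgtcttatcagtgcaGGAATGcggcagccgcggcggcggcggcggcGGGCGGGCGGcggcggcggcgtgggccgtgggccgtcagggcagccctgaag
Smarca4, chr9:21615919-21616168, plus strand: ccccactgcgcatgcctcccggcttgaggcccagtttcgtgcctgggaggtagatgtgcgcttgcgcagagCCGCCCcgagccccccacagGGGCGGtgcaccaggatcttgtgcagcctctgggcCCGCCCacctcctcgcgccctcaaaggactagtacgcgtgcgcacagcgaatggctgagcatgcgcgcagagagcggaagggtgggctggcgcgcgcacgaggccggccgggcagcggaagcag
Gse1, chr8:120537159-120537408, plus strand: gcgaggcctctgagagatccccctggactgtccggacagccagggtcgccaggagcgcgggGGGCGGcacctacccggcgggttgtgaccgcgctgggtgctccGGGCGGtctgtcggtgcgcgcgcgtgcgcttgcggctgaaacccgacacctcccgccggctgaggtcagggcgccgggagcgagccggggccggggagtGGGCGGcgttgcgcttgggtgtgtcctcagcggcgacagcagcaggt
Zmiz1, chr14:25458935-25459184, plus strand: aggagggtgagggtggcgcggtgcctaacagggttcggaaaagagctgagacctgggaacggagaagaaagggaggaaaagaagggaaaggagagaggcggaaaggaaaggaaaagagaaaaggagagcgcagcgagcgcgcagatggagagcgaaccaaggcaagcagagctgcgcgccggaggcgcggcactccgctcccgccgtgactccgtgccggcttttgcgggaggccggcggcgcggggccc

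The motifs were searched on both strands in all 300 bases, and each is given here with the share of all 32851 promoter windows that held it. They were AGATAA for GATA factors (11.2%), CAGCTG for the E-box (16.3%), GGAATG for TEAD factors (14.7%) and GGGCGG for the GC box (35.7%). The others were the CCAAT box by its own letters (37.4%), CCGGAA for ETS factors (14.9%), AGGTGTGA for the T-box (1.28%) and GACCACCCA for GLI factors (0.253%). Motif positions have no 0, while peak positions count the first transcribed base as 0. The Smarcd3 window had an E-box at −237, a TEAD match at −83 and GC boxes at −52 and −48 that overlap each other. The HT peak over it ran from −183 to −11, so the TEAD match and both GC boxes lay inside it and the E-box did not. Smarca4 had GC boxes at −179, −159 and −124, and Gse1 had them at −189, −146 and −47 with an ETS match at +18, beyond the printed bases. Zmiz1 had a CCAAT box at +17, also beyond the printed bases, and no other match. The GATA, T-box and GLI letters were in none of the 4 windows. Their GC content was 74.7% at Smarcd3, 72.3% at Smarca4, 74.7% at Gse1 and 60.7% at Zmiz1, against a median of 52.7% over all windows.

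A peak is called restricted where no peak of the other list overlaps it by at least 1 bp, and shared otherwise. A restricted peak is one that did not pass the threshold in the other tissue, whose chromatin there need not be closed. The nearest gene names a place and need not be the gene a site acts on. Fold enrichment is the authors' peak caller value at the summit over its local background. The reads stacked at the summit (the pileup) and that local background were recovered from the deposited fold and −log10 p, with a whole pileup found for 100% of peaks in both lists. Genome background was 0.824 reads in HT and 0.857 reads in pSHF. The dissections were checked with 5 genes of atrial and cardiac muscle (Nppa, Myl7, Nkx2-5, Actn2 and Ttn). These held 19 HT-restricted and 0 pSHF-restricted peaks in all. A further 5 genes of pSHF and splanchnic mesoderm held 4 and 24, mostly at Gas1 (0 and 11) and Foxf1 (1 and 7). Hoxb3 held 1 and 3 and Osr1 0 and 1, while Isl1 did not lean, with 2 and 2.

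In the lists as deposited, Chd7, Zmiz1 and Gse1 had more HT-restricted than pSHF-restricted peaks, while Prdm16, Smarcd3 and Smarca4 did not. The first set held 56 HT-restricted and 18 pSHF-restricted peaks, and the second held 8 and 11. The sets were formed from these same counts, so the contrast between them was fixed by the grouping. Counts were 22 HT-restricted against 8 pSHF-restricted peaks at Gse1, 18 against 6 at Zmiz1 and 16 against 4 at Chd7. They were 6 against 9 at Prdm16 and 2 against 2 at Smarcd3, and Smarca4 had none. Prdm16 leaned the other way, but this turned with the threshold. At a −log10 q of at least 5 in both lists its count was 4 HT-restricted against 1 pSHF-restricted. With that threshold on the restricted peaks alone it was 3 against 1. Chd7 had the same counts as Prdm16 under both thresholds, 4 against 1 and 3 against 1. Both genes had 1 against 1 at or above the median fold of each list. At these thresholds Chd7 and Prdm16 were not set apart by their counts.

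**Figure D1:**
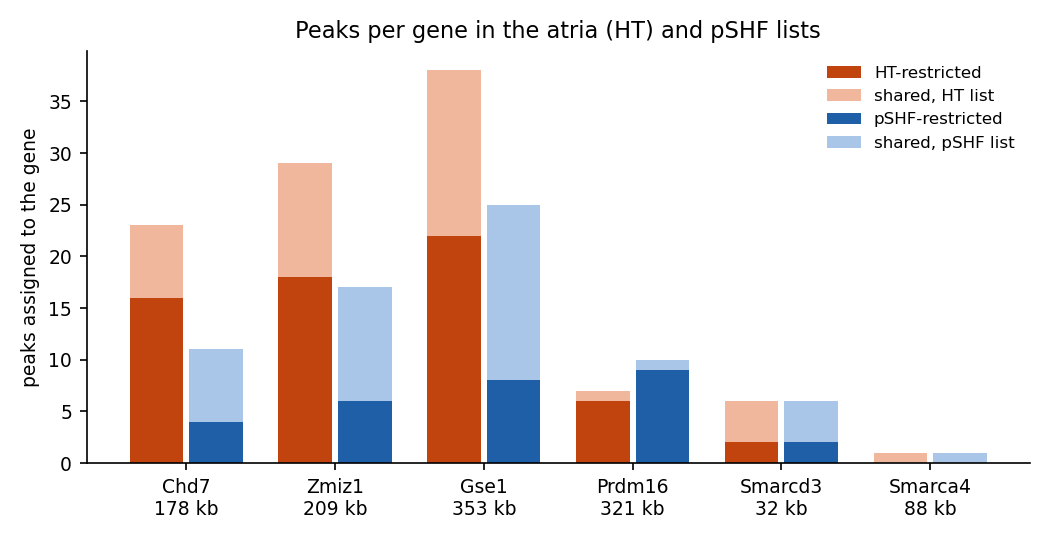
Peaks assigned to each gene in the HT list (left bar) and the pSHF list (right bar), with restricted peaks in dark and shared peaks in light colour, and gene length in kb under each name. HT-restricted peaks numbered 16, 18 and 22 at Chd7, Zmiz1 and Gse1, against 4, 6 and 8 pSHF-restricted peaks, and Prdm16 had 6 against 9.

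Over the 6 genes, 64 of 104 HT peaks were restricted (61.5%, exact Clopper-Pearson 95% interval 51.5 to 70.9) and 29 of 70 pSHF peaks were restricted (41.4%, 29.8 to 53.8). Over the whole lists, 45.5% of HT peaks and 34.4% of pSHF peaks were restricted. Intervals cover counting error over peaks only. By gene, the HT-restricted share was 69.6% at Chd7, 62.1% at Zmiz1, 57.9% at Gse1, 85.7% at Prdm16 and 33.3% at Smarcd3. The pSHF-restricted share was 36.4% at Chd7, 35.3% at Zmiz1, 32% at Gse1, 90% at Prdm16 and 33.3% at Smarcd3. More HT-restricted than pSHF-restricted peaks were found at 29.3% of all protein-coding genes and the reverse at 15.0%. An HT excess of at least 12, the size at Chd7 and Zmiz1, was reached by 8 genes (0.0370%), and Gse1 with 14 ranked second by excess. These shares come from the contrast that chose the genes.

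Peaks per length describe the same HT-restricted peaks again, which make up 12 of the 15 HT peaks in the body of Chd7. Gene bodies held 8.42 HT and 2.81 pSHF peaks per 100 kb at Chd7 (178 kb), 8.62 and 4.79 at Zmiz1 (209 kb), and 10.2 and 6.23 at Gse1 (353 kb). Over the bodies of all protein-coding genes the figures were 2.65 HT and 2.39 pSHF peaks per 100 kb. Prdm16, nearly as long as Gse1 at 321 kb, held 2.18 HT and 3.11 pSHF peaks per 100 kb. Smarcd3, a gene of 31.8 kb, held 18.8 and 12.6, and the 88.1 kb body of Smarca4 held none in either list.

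Among the remodelling ATPases, Chd7 (gene 320790, chr4:8690402-8868449) showed the clearest crowding of atrial peaks at one end of its body. Of its 16 HT-restricted peaks, 12 lay in the gene body, and 10 of these stood between positions 8691873 and 8772467. Its strand was not read from the sources used here, so distances are counted from the lower coordinate. A stretch of 43.4 kb, chr4:8685684-8729126, held 7 HT-restricted peaks of 11 to 22 reads. In the same stretch the pSHF list had 4 peaks, all of them shared. The pSHF-restricted peaks of Chd7 lay elsewhere, with 2 in the body at positions 8799648 and 8850500 and 2 beyond its upper end.

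At the lower end of Chd7 both tissues had a peak of like strength. It had fold 5.58 and 29 reads in HT (chr4:8690015-8690644) and fold 5.54 and 24 reads in pSHF (chr4:8689957-8690590). All 7 shared Chd7 peaks had the higher fold in HT. The widest gap was at chr4:8725496-8725900, inside the noncoding gene Gm46841, with fold 6.52 and 27 reads in HT and fold 3.02 and 7 reads in pSHF. The pSHF peak there had a −log10 q of 1.30, against a lowest value of 1.30 in its list. The strongest restricted peaks of Chd7 were an HT peak 94712 bp beyond the gene (chr4:8963053-8963433, fold 6.49, 12 reads) and a pSHF peak in the body (chr4:8850500-8850678, fold 5.75, 12 reads).

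Smarca4 (gene 20586, chr9:21616106-21704230), the BAF ATPase also called Brg1, had a single peak in each list, over its start. The HT peak was the strongest of all peaks at the 6 genes, with fold 11.8 and 55 reads over 950 bp (chr9:21615711-21616660). The pSHF peak had fold 8.04 and 34 reads over 1046 bp (chr9:21615631-21616676). Both ran across the whole Smarca4 promoter sequence printed above and beyond it, from −458 to +491 in HT and from −538 to +507 in pSHF. No other peak of either list had Smarca4 as its nearest gene within 100 kb.

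Smarcd3 (gene 66993, chr5:24592622-24624456, minus strand), the BAF subunit also called Baf60c, had 6 peaks in each list, of which 4 were shared. At the gene table's start, at the upper coordinate, both tissues had a weak shared peak of 9 reads, with fold 4.29 in HT and 4.66 in pSHF. Its 2 HT-restricted peaks lay in the other part of the gene. One was the peak over the printed promoter sequence (chr5:24602013-24602185, fold 4.02, 20 reads over a local background of 4.22). The nearest pSHF peak was 900 bp from it. Of 32619 promoter windows, 41.5% had an HT peak and 40.8% had a pSHF peak, while 3.09% had an HT peak and no pSHF peak. The second lay at chr5:24597508-24597630 with fold 4.22 and 16 reads. In the opposite direction, the shared site at chr5:24604622-24605112 had 17 reads and fold 4.18 in HT and 28 reads and fold 5.18 in pSHF. Thus 2 of the 4 shared Smarcd3 sites were higher in HT and 2 in pSHF. The pSHF-restricted peaks were one of 6 reads at the gene table's start and one of 9 reads 27736 bp before it.

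**Figure D2:**
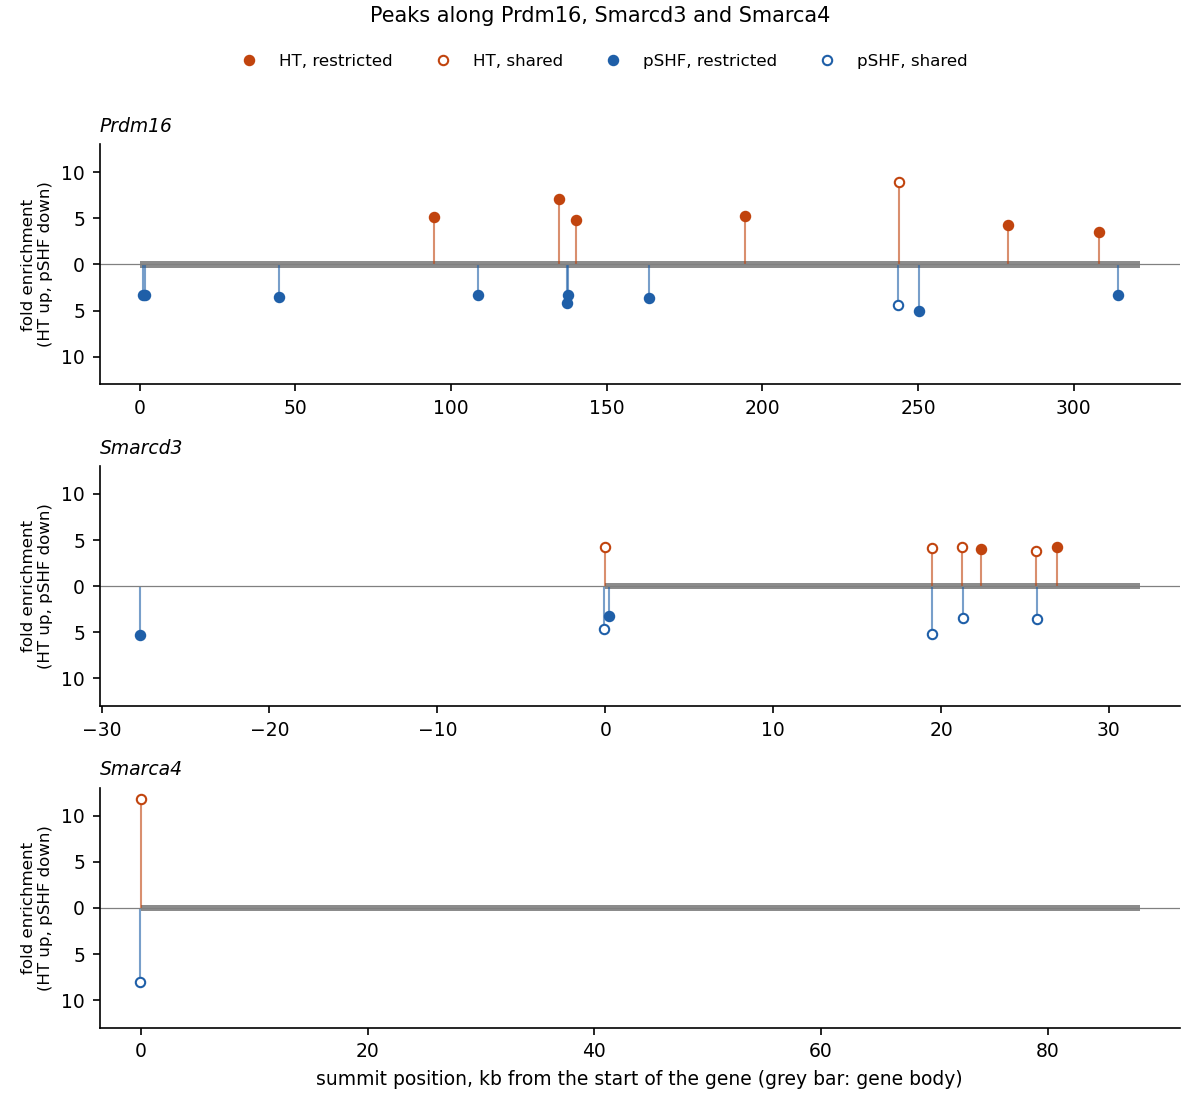
Peak summits along Prdm16, Smarcd3 and Smarca4, with distance from the gene table's start in kb on the x axis and fold enrichment on the y axis, HT upwards and pSHF downwards. Filled points are restricted and open points shared, and the grey bar is the gene body. Prdm16 has 1 shared site among 6 HT-restricted and 9 pSHF-restricted peaks, and Smarca4 has 1 site, at its start, with fold 11.8 in HT and 8.04 in pSHF.

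Of the transcription cofactors, Zmiz1 (gene 328365, chr14:25457875-25666743, plus strand) encodes a coactivator with a PIAS-like zinc finger that works with several transcription factors. Its 18 HT-restricted peaks stood against 6 in the pSHF list, and each list had 11 shared ones. Of the HT-restricted peaks, 6 lay before the start, 11 in the gene body and 1 at the far end. The strongest HT-restricted peak of all 6 genes was in the body, 67.3 kb from the start, at chr14:25524972-25525410. It had fold 8.86, a −log10 q of 31.2 and 52 reads over a local background of 4.99, and it ranked 1144 by fold among 22400 HT-restricted peaks. The nearest pSHF peak was 2328 bp away, at chr14:25522407-25522644, where both lists had a peak. At that neighbouring site the fold was 6.99 with 41 reads in HT and 4.59 with 13 reads in pSHF.

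A second strong HT-restricted Zmiz1 peak stood 6.89 kb inside the gene at chr14:25464686-25464886, with fold 7.15 and 25 reads. Near the far end, 3 HT-restricted peaks of 8 to 11 reads between positions 25634416 and 25646619 had no pSHF peak within 26389 bp. At the start itself both lists had a peak of 30 reads, with fold 5.28 in HT and 4.62 in pSHF. The start whose promoter is printed above had 27 reads and fold 4.70 in HT and 23 reads and fold 3.57 in pSHF. Between these starts lay a pSHF-restricted peak of 19 reads (chr14:25458764-25458881, fold 2.99) that was 227 bp from an HT peak. The strongest pSHF peak of Zmiz1 was shared and lay 79715 bp before the start, inside the noncoding gene Zmiz1os1 (chr14:25377927-25378704), with fold 6.81 and 19 reads in HT and fold 8.05 and 29 reads in pSHF.

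Gse1 (gene 382034, chr8:120228501-120581383, plus strand) encodes a protein found in human cells with the LSD1 histone demethylase, CoREST and histone deacetylases. It ranked second of all 21631 genes by number of HT-restricted peaks, and all 22 of them lay inside the gene, more than 1 kb from either end. The pSHF list had 8 restricted Gse1 peaks, 7 in the body and 1 before the start. Spacing between neighbouring HT-restricted summits had a median of 7560 bp at Gse1, 12602 bp at Chd7, 13195 bp at Zmiz1 and 40126 bp at Prdm16.

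The densest stretch of Gse1, chr8:120277189-120319762, held 8 HT-restricted peaks in 42.6 kb and 1 pSHF peak, which was shared. Inside it, 5 HT-restricted peaks stood within 2285 bp at chr8:120293484-120295768, 65.2 to 67.2 kb from the start. Their pileups were 16 to 40 reads over local backgrounds of 4.92 to 5.60 reads, well above the genome background of 0.824. No pSHF peak lay within 5012 bp on the right or 16579 bp on the left. Whether these 5 peaks are separate elements was not tested.

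Gse1 held the shared site with the widest log2 ratio of HT over pSHF fold among the 6 genes. At that site, chr8:120475516-120476128, the HT peak had fold 9.71 and 43 reads, and its strongest pSHF partner had fold 4.35 and 13 reads. At chr8:120487033-120487340 the folds were 6.29 in HT and 3.06 in pSHF, with 35 and 12 reads. The strongest HT-restricted peak, chr8:120371663-120372109, had fold 7.31 and 50 reads, and 2484 bp to its right stood the strongest pSHF-restricted peak, chr8:120374593-120374867, with fold 5.03 and 22 reads. At the gene table's start the folds were 6.94 in HT and 5.34 in pSHF, with 24 and 25 reads. At the inner start whose promoter is printed above they were 5.90 and 3.83, with 39 and 25 reads.

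**Figure D3:**
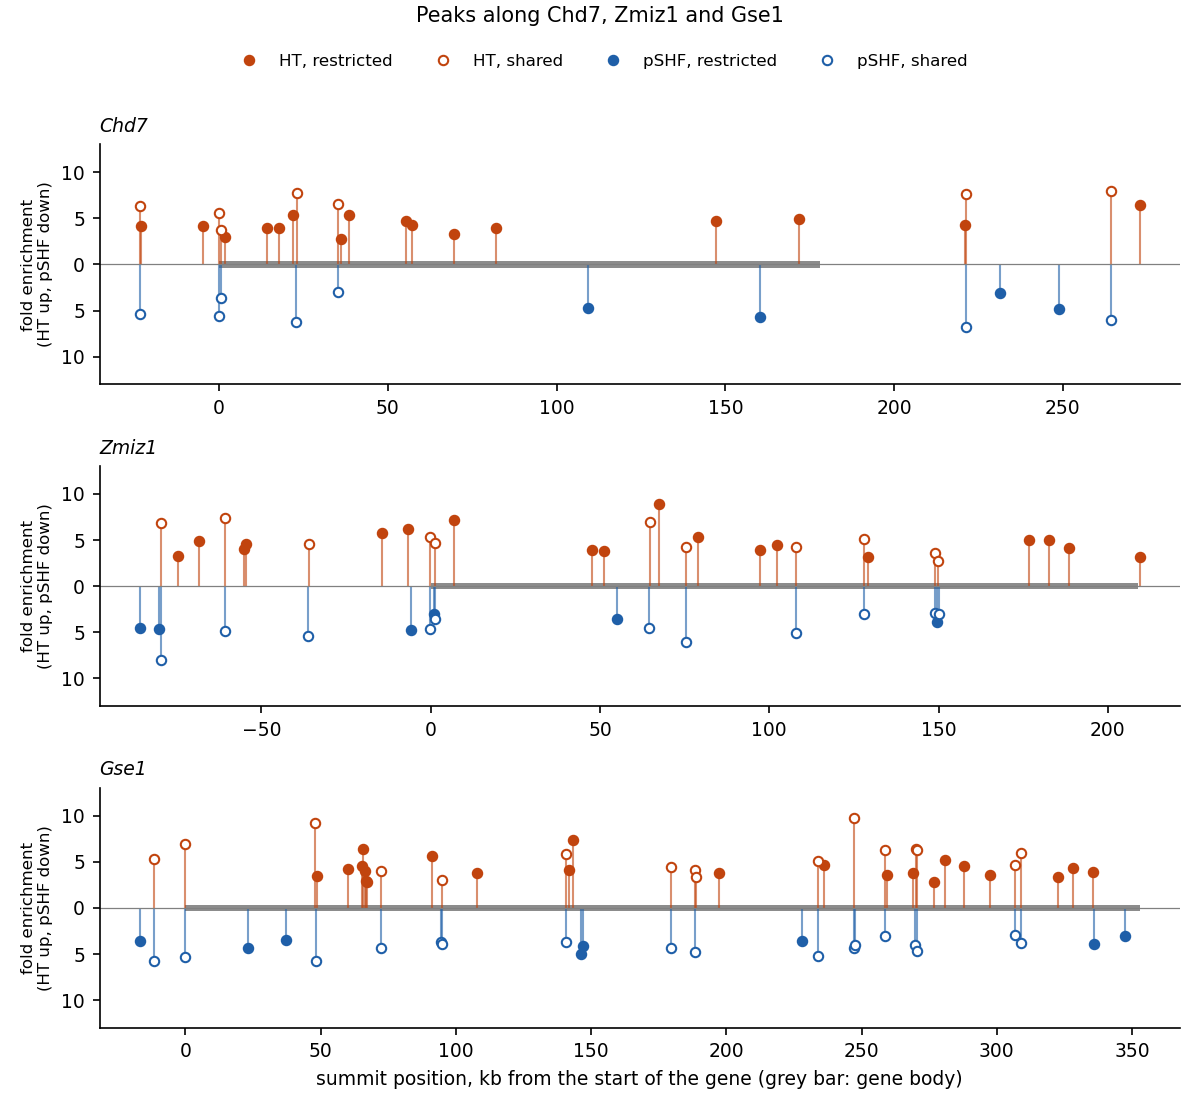
Peak summits along Chd7, Zmiz1 and Gse1, with distance from the gene's start in kb on the x axis (for Chd7, from its lower coordinate) and fold enrichment on the y axis, HT upwards and pSHF downwards. Filled points are restricted, open points shared, and the grey bar is the gene body. Filled HT points outnumber filled pSHF points 16 to 4 at Chd7, 18 to 6 at Zmiz1 and 22 to 8 at Gse1.

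Prdm16 (gene 70673, chr4:154316122-154637360, minus strand) encodes a zinc-finger transcription regulator of the PRDM family, known for its part in brown fat. The lists shared 1 site at Prdm16, and the other 6 HT and 9 pSHF peaks were restricted. All of these peaks lay in the gene body. At a −log10 q of at least 5, 3 of the HT-restricted and 1 of the pSHF-restricted peaks remained, so most of the restricted peaks did not reach it. The HT-restricted peaks had folds from 3.49 to 7.11 with a median of 5.01, and the pSHF-restricted ones had folds from 3.26 to 5.01 with a median of 3.35. The strongest HT-restricted peak was at chr4:154502487-154502725 with 16 reads, and pSHF-restricted peaks of 10 and 13 reads stood side by side on its left, the nearer of them 2431 bp away. At the shared site, chr4:154393323-154394129, the fold was 8.93 with 29 reads in HT and 4.34 with 12 reads in pSHF.

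Near the start of Prdm16, a pair of pSHF-restricted peaks of 15 reads each (chr4:154635573-154636028, fold 3.35, and chr4:154636192-154636324, fold 3.33) had summits 1132 and 579 bp inside the listed start. The promoter window itself had no peak in either list, and the nearest HT peak was 59120 bp from it. These peaks had −log10 q values of 3.11 and 3.08, close to the median of 3.07 over pSHF-restricted peaks.

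Restricted peaks of the 6 genes were weaker than shared ones, as in the whole lists, and often rested on few reads. The median fold was 4.23 in HT-restricted and 5.28 in shared HT peaks of the genes. In the pSHF list it was 3.64 in their restricted and 4.59 in their shared peaks. Over all HT peaks it was 4.84 in restricted and 6.996 in shared ones. Over all pSHF peaks it was 4.31 in restricted and 5.54 in shared ones. Shared peaks of the genes thus also had a lower median fold than shared peaks in general. Median pileup at the genes' restricted peaks was 12 reads in HT and 10 in pSHF, against 9 and 8 over all restricted peaks. Local background was higher too, at 2.14 reads in HT and 1.97 in pSHF, against 0.968 and 1.04 over all restricted peaks. By these medians, restricted peaks of the genes had more reads but a lower fold than restricted peaks in general. This is no relation between reads and fold from peak to peak. The part of local background in the peak counts was not tested.

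**Figure D4:**
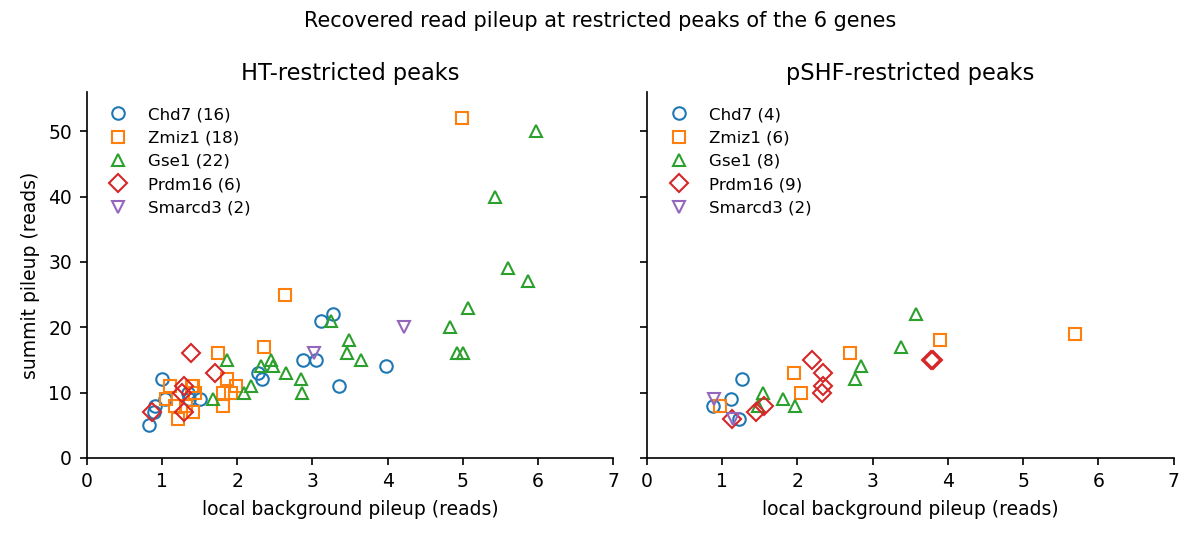
Summit pileup (y axis, reads) against local background (x axis, reads) for the 64 HT-restricted peaks (left) and the 29 pSHF-restricted peaks (right) of 5 genes, Smarca4 having none, with the count per gene in the legend. The highest HT points are a Zmiz1 peak of 52 reads and Gse1 peaks of 50 and 40 reads, and the highest pSHF point is a Gse1 peak of 22 reads.

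Fewer restricted peaks were left at stricter thresholds. At a −log10 q of at least 5, 23 of the 64 HT-restricted peaks remained (10 at Gse1, 5 at Zmiz1, 3 each at Chd7 and Prdm16, 2 at Smarcd3), and 4 of the 29 pSHF-restricted peaks remained. Over the whole lists, 9156 of 22400 HT-restricted and 2403 of 15132 pSHF-restricted peaks remained. Counted the other way, 46% of the genes' HT peaks at that threshold had no overlap with the other list as deposited. Over the lists this share was 30.7% of HT peaks and 11.7% of pSHF peaks. At or above the median fold of their own list, 5.49 in HT and 4.85 in pSHF, there were 9 HT-restricted peaks (4 at Zmiz1, 3 at Gse1, 1 each at Chd7 and Prdm16, none at Smarcd3) and 4 pSHF-restricted ones. Over the whole lists, 6631 of 22400 HT-restricted and 4357 of 15132 pSHF-restricted peaks reached it. Of the genes' HT peaks at or above that fold, 32.1% were restricted, near the 26.9% over the HT list. In the pSHF list as a whole this share was 18.7%. At Chd7 the excess of 12 was 0 by this fold threshold and 2 by the threshold on q. Of its 16 HT-restricted peaks, 1 reached the median fold of the list. A peak of the other list lay within 1 kb of 12 HT-restricted and 6 pSHF-restricted peaks of the genes. The same count over all restricted peaks is not given here.

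Restricted and shared peaks of the genes both lay mostly in gene bodies. Bodies held 53 of 64 HT-restricted and 20 of 29 pSHF-restricted peaks, and 27 of 40 shared HT and 28 of 41 shared pSHF peaks. The places of all peaks in the lists are not given here, so neither these counts nor those at gene starts mark these genes out. Summits within 1 kb of the start in the gene table (for Chd7, its lower coordinate) numbered 0 HT-restricted and 2 pSHF-restricted, beside 6 shared HT and 6 shared pSHF. Measured from the starts in the promoter table instead, an HT-restricted Smarcd3 summit was 79 bp away, the peak over the printed promoter. An HT-restricted Gse1 summit (chr8:120488002-120488224) was 761 bp away. By the same measure, pSHF-restricted summits at Zmiz1 and Prdm16 were 338 and 579 bp away. The pSHF-restricted summit at the gene table's start of Smarcd3 was 22247 bp away. A further 8 HT-restricted and 5 pSHF-restricted peaks lay before a start. The gene table gives no exons, so exonic and intronic peaks were not separated.

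Fold at the shared sites was compared pair by pair. At the 40 shared HT peaks of the genes, the median log2 ratio of HT over pSHF fold was 0.26 (quartiles −0.12 and 0.62), and 27 of 40 (67.5%) were higher in HT. Over all 26867 shared HT peaks the median was 0.27 (quartiles −0.01 and 0.54), and 74.0% were higher in HT. The shared sites of the genes thus leaned to HT about as much as shared sites in general. By gene the median was 0.40 at Gse1 (10 of 16 higher in HT), 0.23 at Chd7 (7 of 7), 0.19 at Zmiz1 (6 of 11) and −0.01 at Smarcd3 (2 of 4), with single sites of 1.04 at Prdm16 and 0.56 at Smarca4.

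**Figure D5:**
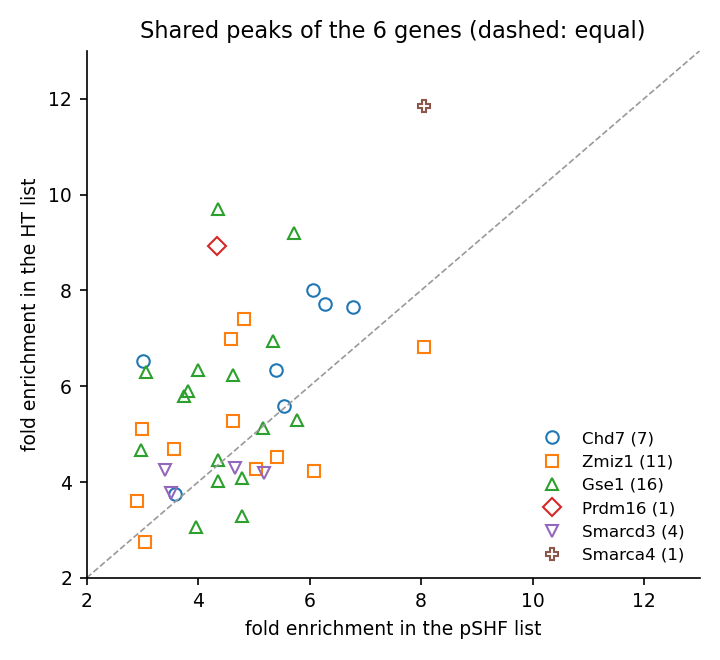
Fold enrichment in the HT list (y axis) against that in the pSHF list (x axis) at the 40 shared HT peaks of the genes, with the number per gene in the legend and a dashed line at equal fold. Points above the line are higher in HT, which holds for 27 of 40, and the highest point is Smarca4 with 11.8 in HT and 8.04 in pSHF.

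Chd7 and Zmiz1 had peaks on both sides of the 100 kb limit. The farthest peaks inside it were 94712 bp (HT, fold 6.49) and 86307 bp (pSHF, fold 6.06) from Chd7, and 79761 bp (HT, fold 6.81) and 85974 bp (pSHF, fold 4.57) from Zmiz1. The nearest peaks outside it were 133411 bp (HT, fold 4.39) and 118209 bp (pSHF, fold 5.28) from Chd7, and 225808 bp (HT, fold 10.2) and 139775 bp (pSHF, fold 3.45) from Zmiz1. The other 4 genes had none between 100 and 500 kb. With a limit of 500 kb, the HT-restricted count of Zmiz1 was 22 and its pSHF-restricted count 12, where the 100 kb limit gave 18 and 6. At Chd7 these counts were 17 and 6, where the 100 kb limit gave 16 and 4.

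Genes with like counts were found by distance on the log2(count + 1) scale over HT-restricted, pSHF-restricted and shared HT peaks, with 2 named for each gene. Nearest to Chd7 were Ank2 (12, 4 and 8 peaks, distance 0.42) and Cdkal1 (12, 4 and 6, 0.43). Nearest to Zmiz1 were Ank3 (16, 7 and 9, 0.36) and Zbtb20 (16, 6 and 8, 0.44), and nearest to Gse1 were Macrod2 (25, 8 and 13, 0.33) and Tenm4 (19, 9 and 12, 0.46). Nearest to Prdm16 were Npas3 (7, 9 and 1, 0.19) and Prex1 (8, 8 and 1, 0.39). Smarcd3 and Smarca4 had the same counts as 27 and 3715 other genes, with Bcar1 and Akap1 nearest in length to Smarcd3 and Kidins220 and Dop1a to Smarca4.

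Relatives and partners of the 6 genes were counted from lists drawn up by family or complex, with the genes themselves left out. Of 23 other BAF subunits, 10 had more HT-restricted peaks and 4 more pSHF-restricted peaks, with 38 and 16 peaks in all and a median difference of 0. Of the 8 other CHD remodellers, 5 and 1 leaned that way, with 16 and 8 peaks and a median difference of 1. For 14 other PRDM genes the counts were 8 and 4, with 28 and 21 peaks and a median of 1. Of 11 partners of LSD1, CoREST and HDAC, 2 and 1 leaned, with 9 and 7 peaks and a median of 0, and of 5 PIAS relatives of Zmiz1, 1 and 3 leaned, with 2 and 5 peaks and a median of −1. Over all protein-coding genes 6335 had more HT-restricted and 3235 more pSHF-restricted peaks, and the median difference was 0. An excess of at least 5 either way was found at 466 of the 21631 protein-coding genes and at 2 genes of these lists. These were Dpf3, a reader of histone marks, with 10 HT-restricted against 4 pSHF-restricted peaks, and Arid1b, a DNA-binding subunit, with 8 against 1.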

How the data were processed

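Open chromatin was measured by ATAC-seq in 3 HT and 3 pSHF samples, deposited as 1 peak list per tissue. MACS2 2.1.1, Bowtie2 2.3.2, Picard and SAMtools 1.5 are named with build mm10, per the submitters' processing notes. What each tool did, its parameters and any pooling of samples are not given in those notes as used here. Each deposited line gives a summit offset, a score, the fold enrichment as a ratio, a −log10 p and a −log10 q from the authors' peak caller. The lists held 60223 HT and 58887 pSHF lines, with a lowest −log10 q of 1.31 and 1.30.

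Lines with an equal interval were merged, keeping the summit of highest fold. Each peak was assigned by its summit to the closest protein-coding interval of a RefSeq GRCm38.p6 table. Pileup was solved from fold = (pileup + 1)/(background + 1) and a Poisson p, to within 0.01 on the log10 scale, and covers no read totals. No test was run, because there is 1 list per tissue. The members and gene lists were chosen with earlier results of these data known. The peaks named are, per gene, the strongest restricted and shared peak of each list, the one at the start and the densest 50 kb, with others chosen after their values were seen. Counting was tested on simulated data. Python 3.11.15, numpy 2.4.6, pandas 2.3.3, SciPy 1.17.1 and matplotlib 3.10.9 were used.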

Additional observations from a re-analysis of the deposited data

How the results depend on the processing

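The excess of 35 HT-restricted over pSHF-restricted peaks was between 5 and 36 under the 10 alternatives tried. The genes were chosen with this excess known, so its positive sign throughout is no support for it. The whole lists leaned the same way, with 22400 HT-restricted and 15132 pSHF-restricted peaks. At the genes the excess was 19 when restricted peaks needed a −log10 q of 5 (the other list as deposited). It was 5 when they needed the median fold of their list, and 21 with peaks assigned to the nearest gene end. The HT-restricted share of 61.5% was 72.1% with a 50% reciprocal overlap. That rule raised both counts, HT-restricted peaks from 64 to 75 and pSHF-restricted peaks from 29 to 41. The share over all HT peaks under it is not given here. At the genes the share was 46% with the q threshold and 32.1% with the fold threshold, beside 30.7% and 26.9% over all HT peaks. The median log2 ratio of 0.26 at shared sites was 0.43 and 0.61 under those thresholds. There the HT peak had to pass and its pSHF partner did not, which by itself favours sites higher in HT. With the q threshold on both lists the ratio was 0.30, and with each summit counted on its own it was 0.14. At Prdm16 the difference of −3 turned to 3 with this q threshold on both lists, and to 2 with it on the restricted peaks alone. Over all settings Gse1 ranged from 2 to 14, Zmiz1 from 4 to 12, Chd7 from 0 to 13 and Smarcd3 from −2 to 3, and Smarca4 stayed at 0. A threshold leaves fewer peaks to count. Some values also moved with no threshold on strength: with peaks assigned to the nearest gene end, Gse1 was at 5 and Smarcd3 at −2. The causes of these shifts were not tested. No paired analysis was possible because each tissue has 1 list, and for the same reason no sample could be left out.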
